A study of Mus musculus with 8 samples.

Results

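DNA replication and S-phase repair genes were followed across the 4 conditions of an RNA-Seq experiment on NIH3T3, a line of mouse embryonic fibroblasts able to respond to Hedgehog (Hh) ligand. The 46 genes were listed by function and cover the replicative helicase, origin licensing, the sliding clamp, the polymerases, nucleotide supply, chromatin copying and repair. For each gene the row of each deposited table whose mm9 locus overlapped the annotated gene best was taken, if the shared part was at least 0.5 of the length the locus and the gene cover together. Values were available for all 46 in the 8 libraries, and 44 of them reached 1 FPKM (a fragment count divided by transcript length in kilobases and by the library's mapped fragments) in at least 2 libraries and were tested. They were tested together with all other genes that passed this limit, 10283 genes in all of 20195 with a row in every library.

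Each condition had 2 libraries. Control cells (NIH3T3-pc3.1) were stably transfected with the empty pcDNA3.1 (Zeo+) vector and received vehicle, which was medium of HEK293 cells without the Sonic Hedgehog transgene at the same dilution as the ligand. Hh-CM cells carried the same empty vector and received, diluted 1:100, Hh ligand conditioned medium from cells of the human kidney line HEK293 in which a transgene makes the N-terminal fragment of Sonic Hedgehog. Esrrb cells (NIH3T3-Esrrb) carried the vector with the coding sequence of Esrrb, an orphan nuclear receptor, and received vehicle, and Esrrb+Hh-CM cells carried the Esrrb vector and received Hh-CM. All cells had been selected with 150 µg/ml Zeocin for 3 weeks, were at passages 5 to 6, were grown to confluence and were treated for 48 h in medium with 5 % newborn calf serum. The cells of independent transfections were pooled, so a condition is a pool of transfectants and not a clone. Effects of the Esrrb sequence and of the pool that carries it cannot be told apart. The study calls the 2 libraries of a condition biological replicates but does not state whether they stem from separate transfections. The p-values therefore measure the spread between these libraries, which may be in part technical.

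Eukaryotic cells license their origins in G1 by loading the MCM helicase, and fire them in S phase, when the helicase opens the DNA and the polymerases, held by the sliding clamp PCNA, copy both strands. The mRNAs of many of these proteins are made in waves, as E2F transcription factors, released from the retinoblastoma proteins, switch them on when a cell leaves G0 or G1. Fibroblasts grown to confluence tend to rest, and Hedgehog ligand is a mitogen for several cell types.

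The libraries carried the marks of the treatment but not of the vector. Gli1, the Hh target used most widely as a readout, was at most 0.106 FPKM in the 4 vehicle libraries and at least 26.8 FPKM in the 4 libraries with Hh-CM. The Esrrb locus was listed at 0 FPKM in all 4 libraries labelled with Esrrb and in both Control libraries, and at 0.0281 and 0.0203 FPKM in the Hh-CM libraries. A 0 there is not read as absent Esrrb, since it can be a failed estimate and it was not tested whether RNA from the vector is counted at the locus. The study examined Esrrb protein by Western blot, which is not analysed here. The Esrrb labels could thus not be checked at the RNA level, and every direction given below for Esrrb is that of the libraries labelled so. Of 9 fibroblast markers 8 had a row, and each of the 8 reached 1 FPKM, with a summed level of 5479 to 6385 FPKM. The summed level of 4 epithelial markers was at most 0.0904 FPKM and that of 3 muscle markers at most 0.324 FPKM, with 2 markers of each list at 0 throughout. The 4 endothelial markers summed to 0.0812 to 0.143 FPKM in vehicle libraries and 1.19 to 1.67 FPKM with Hh-CM, of which Tek alone made 1.06 to 1.51 FPKM (Pecam1 was at most 0.12 FPKM and Kdr at 0 throughout), and the 4 blood markers to 0.958 to 2.68 FPKM (2 of them at 0). Their part in the results below was not tested. Relative depth, read from the steps of low FPKM values with Control replicate 1 at 1, was lowest in Esrrb+Hh-CM replicate 2 (0.743) and highest in Hh-CM replicate 2 (1.54).

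The replication genes were highest when the Esrrb vector and Hh-CM were combined. Between Control and Esrrb+Hh-CM libraries, 40 of the 44 tested genes rose and none fell at an adjusted p below 0.05 (limma, Benjamini-Hochberg), where 23% of all genes tested rose and 12% fell. A rise by at least 1 on the log2 scale at that adjusted p, both thresholds together, was met by 29 of the 44, where 4.6% of all genes were so called as higher and 1.61% as lower. The median log2 fold change of the 44 was 1.13, or 2.18-fold, against 0.08 for all genes. In 41 of the 44 genes (93.2%) both Esrrb+Hh-CM libraries lay above all 6 other libraries, as they did for 18.9% of all genes. The other three were Pola2, Rpa3 and Dnmt1. When the FPKM were rescaled by median ratios, 38 of the 44 passed and none fell, while the share of rises among all genes called went from 65.7% to 49.0%. In bulk RNA, more cells in S phase and more of these mRNAs per cell cannot be told apart.

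**Figure D1:**
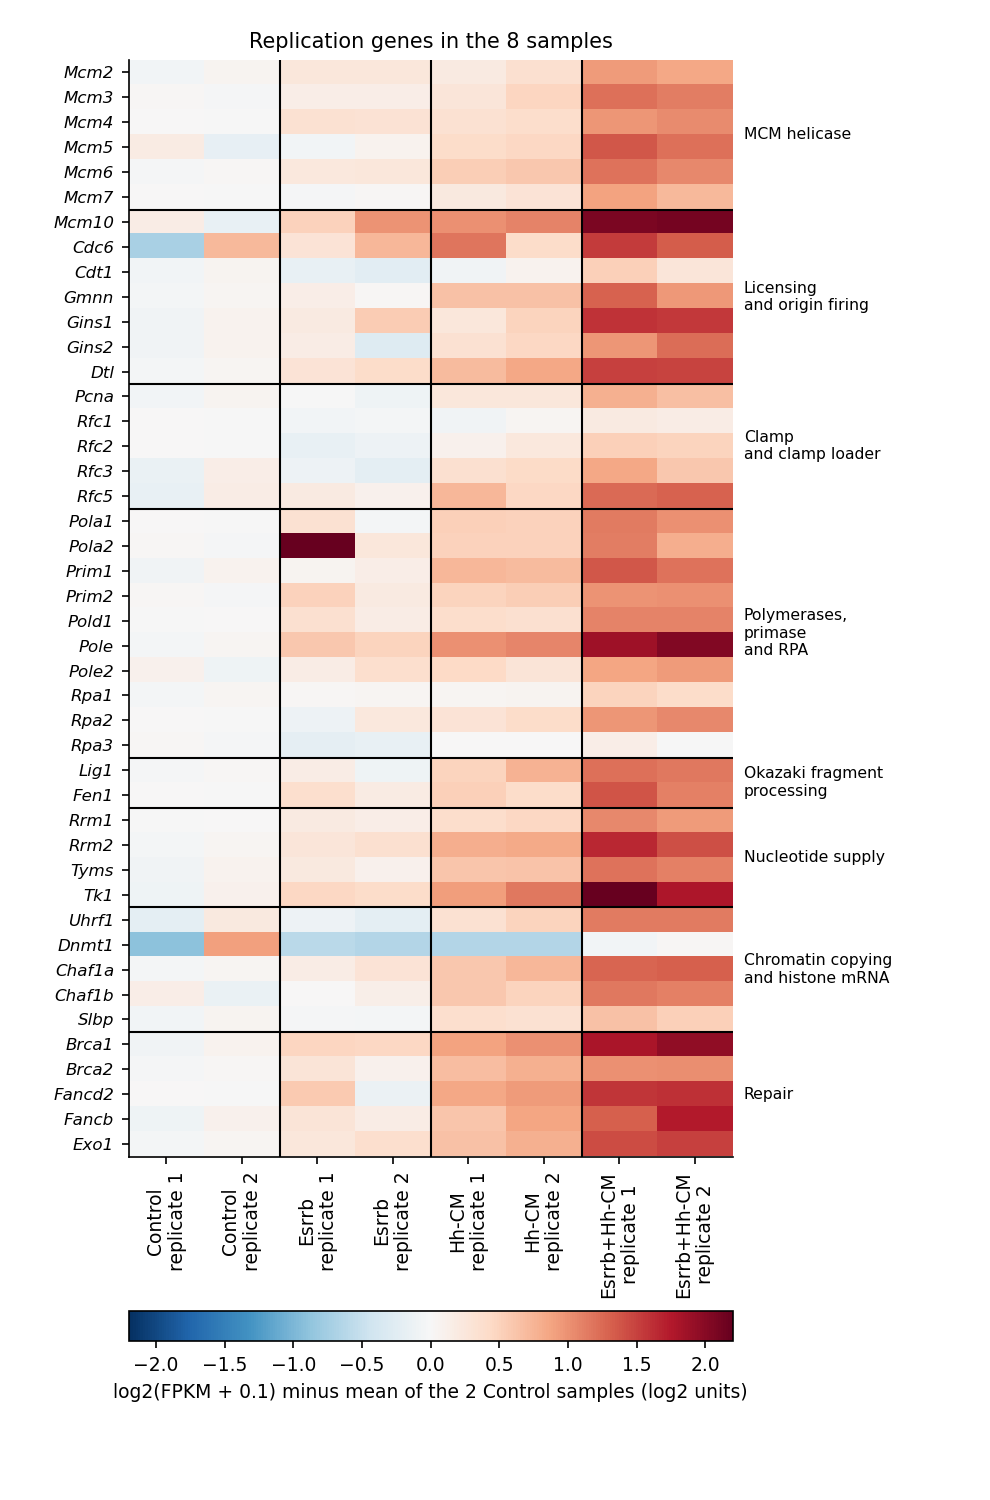
Each row is 1 of the 44 tested replication genes, grouped by role, and each column 1 of the 8 libraries. Colour gives log2(FPKM + 0.1) minus the mean of the 2 Control libraries, with red higher and blue lower (the scale stops at 2.2 and Pola2 in Esrrb replicate 1 and Tk1 in Esrrb+Hh-CM replicate 1 lie beyond it), and the 2 Esrrb+Hh-CM columns are the reddest in 41 of the 44 rows.

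The promoters of the replication genes were searched for 5 motifs. RefSeq (GRCm38.p6) windows from 250 bases before to 50 after a transcription start were given for 37 of the 46 genes. Mcm4, Gmnn, Gins1, Gins2, Rfc2, Prim2, Pole, Fancd2 and Exo1 had none. The E2F letters searched on both strands were TTTNNCGC with the middle letters G or C, that is TTTGGCGC, TTTGCCGC, TTTCGCGC or TTTCCCGC. They stood in the windows of 15 of the 37 genes (40.5%), against 2.6% of all 27025 genes with a window. These 15 were Mcm3, Mcm5, Mcm6, Mcm7, Cdc6, Cdt1, Dtl, Rfc3, Pola1, Pold1, Pole2, Lig1, Uhrf1, Dnmt1 and Brca2. Shown here are the 8 of them in which each match begins at or before the start site, with 20 bases on either side and no more than 30 bases after the start. Capitals mark the matches, the sequences run 5′ to 3′ along the gene, and matches on opposite strands overlap in Mcm5 and in the first block of Mcm6.
Mcm5: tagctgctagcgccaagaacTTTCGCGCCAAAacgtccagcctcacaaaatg
Mcm6: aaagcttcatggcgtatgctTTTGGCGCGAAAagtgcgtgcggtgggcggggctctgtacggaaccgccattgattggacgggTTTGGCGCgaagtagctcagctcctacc
Cdc6: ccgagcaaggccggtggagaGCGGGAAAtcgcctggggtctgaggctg
Dtl: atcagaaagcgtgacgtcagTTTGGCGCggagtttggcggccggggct
Rfc3: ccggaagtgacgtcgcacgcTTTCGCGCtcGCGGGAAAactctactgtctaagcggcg
Pola1: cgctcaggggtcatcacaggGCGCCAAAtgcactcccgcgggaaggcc
Uhrf1: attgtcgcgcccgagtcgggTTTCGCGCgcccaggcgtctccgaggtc
Brca2: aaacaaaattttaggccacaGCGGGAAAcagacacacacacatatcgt
These stretches are Mcm5 at chr8:75109336-75109387 (plus strand), Mcm6 at chr1:128359725-128359835 (minus strand), Cdc6 at chr11:98907993-98908040 (plus strand), Dtl at chr1:191575525-191575572 (minus strand), Rfc3 at chr5:151651181-151651238 (minus strand), Pola1 at chrX:93632266-93632313 (minus strand), Uhrf1 at chr17:56304108-56304155 (plus strand) and Brca2 at chr5:150522433-150522480 (plus strand). In Dtl and Rfc3, which encode a subunit of the ubiquitin ligase that removes Cdt1 and a clamp loader subunit, the matches sit at the start site itself, at base -8 in Dtl and at bases -10 and 1 in Rfc3.

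Genes without the letters moved as well, by 0.07 to 2.09 on the log2 scale between Control and Esrrb+Hh-CM libraries, against -0.02 to 1.5 for those with them. The -0.02 is that of Dnmt1, whose row in Control replicate 2 covered a longer locus. The next lowest gene with the letters was Cdt1 (0.40). Tk1, with the second largest rise of the 44, and Rpa3, which did not pass the test, are the examples here: no E2F match was found in the window of either, of which the 150 bases before the start are shown.
Tk1: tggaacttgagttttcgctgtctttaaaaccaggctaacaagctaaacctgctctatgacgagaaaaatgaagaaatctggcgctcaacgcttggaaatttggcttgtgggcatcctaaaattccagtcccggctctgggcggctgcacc
Rpa3: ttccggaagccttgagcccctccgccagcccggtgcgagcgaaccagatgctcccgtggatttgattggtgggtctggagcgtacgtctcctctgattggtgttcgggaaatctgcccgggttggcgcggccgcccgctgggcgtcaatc
They lie in Tk1 at chr11:117826015-117826164 (minus strand) and Rpa3 at chr6:8259142-8259291 (minus strand). The 15 genes with E2F letters had a median log2 fold change between Control and Esrrb+Hh-CM libraries of 1.09, and the 20 tested genes with a window but no such letters one of 1.14. The CHR letters had the opposite distribution. TTTGAA, the core of the CHR element that is bound in promoters of late cell cycle genes, was in 4 of the 37 replication genes (10.8%), 19 of 26 mitosis genes (73.1%) and 20.2% of all genes. E2F letters were in 1 of these 26 mitosis genes (3.85%) and in 13 of 43 other replication and S-phase genes (30.2%). The CCAAT box, CCAAT, was in 24 of the 37 replication genes (64.9%), 20 of the 26 mitosis genes (76.9%) and 41.1% of all genes. TNAAGGTCA, the extended half-site that receptors of the Esrrb family bind, was in 1 of the 37 (2.7%), Fen1, against 1.43% of all genes. GACCACCCA, the letters bound by the Gli factors, was in 0 of the 37 against 0.289% of all genes. These are matches of letters in 300 bases and not measured binding.

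**Figure D2:**
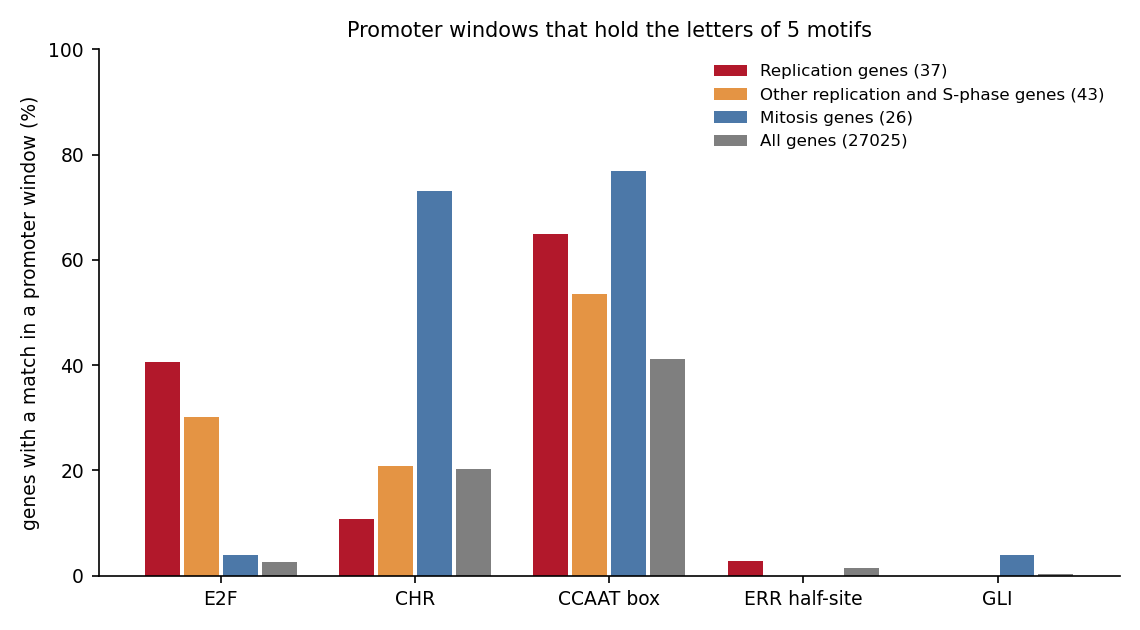
Bars give the percentage of genes with a match to each of 5 motifs in a RefSeq promoter window, for replication genes (37), other replication and S-phase genes (43), mitosis genes (26) and all genes (27025). E2F letters stand in 40.5% of the replication genes and 3.85% of the mitosis genes, CHR letters in 10.8% and 73.1%.

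The MCM helicase, the ring of Mcm2 to Mcm7 that unwinds DNA ahead of the fork, rose as a whole. All 6 subunits passed the adjusted p between Control and Esrrb+Hh-CM libraries, with log2 fold changes from 0.79 to 1.29, and 4 of them passed both thresholds. Mcm5 (mm9 chr8:77633427-77652338) was measured at 9.99 and 7.75 FPKM in Control, 8.43 and 9.24 in Esrrb, 11.7 and 12.1 in Hh-CM and 22.9 and 20.4 in Esrrb+Hh-CM libraries. Mcm3 (chr1:20793055-20810359) stood at 15.8 and 15.4 FPKM in Control, 17.3 and 17.2 in Esrrb, 18.7 and 21.6 in Hh-CM and 36.1 and 34.0 in Esrrb+Hh-CM libraries. In both genes the Esrrb+Hh-CM libraries were clear of all others, the Hh-CM libraries came next, and for Mcm5 the Control and Esrrb libraries overlapped. The log2 fold change was 1.29 ± 0.13 (SE, adjusted p = 0.00101) for Mcm5 and 1.16 ± 0.08 (SE, adjusted p = 0.000207) for Mcm3. Mcm7 (chr5:138605811-138613650), the smallest change of the ring, was at 21.8 and 21.4 FPKM in Control, 21.3 and 21.9 in Esrrb, 25.1 and 26.5 in Hh-CM and 39.7 and 35.4 in Esrrb+Hh-CM libraries. Its 4 vehicle libraries lay within 21.3 to 21.9 FPKM, all other libraries were higher, and the change from Control to Esrrb+Hh-CM was 0.79 ± 0.07 (SE, adjusted p = 0.000456). Mcm6 (1.13), Mcm4 (1.004, only just past the limit of 1) and Mcm2 (0.89) were between these. Mcm4 and Mcm6 also rose with the Esrrb label alone, by 0.32 ± 0.04 (SE, adjusted p = 0.00701) and 0.24 ± 0.06 (SE, adjusted p = 0.0394). They are 2 of 5 such calls among the 44 genes, close to the 10.2% of all genes that rose in that comparison.

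Licensing and origin firing factors spread from 0.40 to 2.09. Mcm10 (chr2:4910760-4933837), which helps turn the loaded helicase into a moving one, was at 1.67 and 1.33 FPKM in Control, 2.16 and 3.03 in Esrrb, 3.08 and 3.28 in Hh-CM and 6.57 and 6.75 in Esrrb+Hh-CM libraries. Gins1 (chr2:150731136-150757016), a subunit of the GINS complex of the active helicase, was at 2.12 and 2.35 FPKM in Control, 2.57 and 3.34 in Esrrb, 2.67 and 3.16 in Hh-CM and 6.93 and 6.75 in Esrrb+Hh-CM libraries. Both were between 6.57 and 6.93 FPKM in the combined condition and at most 3.34 FPKM elsewhere, and for Gins1 the Esrrb and Hh-CM libraries overlapped. Mcm10 rose by 2.09 ± 0.18 (SE, adjusted p = 0.000602), the largest change among the 44 genes, and Gins1 by 1.57 ± 0.15 (SE, adjusted p = 0.000861). Cdt1 (chr8:125091915-125097028), which loads the MCM ring, was at 10.1 and 11.1 FPKM in Control, 9.44 and 8.92 in Esrrb, 9.98 and 11.2 in Hh-CM and 15.2 and 12.8 in Esrrb+Hh-CM libraries. It was lower in both Esrrb libraries than in any other library and overlapped between Control and Hh-CM, and its rise to Esrrb+Hh-CM was small, 0.40 ± 0.11 (SE, adjusted p = 0.0335). That call was lost when either Control library, either Esrrb library or Esrrb+Hh-CM replicate 1 was left out (adjusted p 0.0538 to 0.142). Dtl rose by 1.5 ± 0.08, Gmnn, which encodes the Cdt1 inhibitor geminin, by 1.12 ± 0.12 and Gins2 by 1.10 ± 0.17. Cdc6, the partner of Cdt1 in loading, did not pass (1.44 ± 0.51, adjusted p = 0.0752), with Control libraries as far apart as 0.866 and 2.52 FPKM and Esrrb+Hh-CM libraries at 4.52 and 3.93 FPKM.

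The sliding clamp and its loader rose as well. The 5 tested genes of this role all passed the adjusted p, with log2 fold changes from 0.18 to 1.27, but Rfc5 alone passed both thresholds. Pcna (chr2:132074898-132079050), the clamp itself and the most abundant of the 46 mRNAs per length, was at 85.3 and 91.8 FPKM in Control, 88.1 and 83.3 in Esrrb, 105 and 106 in Hh-CM and 153 and 139 in Esrrb+Hh-CM libraries. Rfc5 (chr5:117828112-117839056) was at 6.31 and 7.97 FPKM in Control, 8.16 and 7.62 in Esrrb, 11.8 and 9.78 in Hh-CM and 17.0 and 17.6 in Esrrb+Hh-CM libraries. Rfc1 (chr5:65653091-65726909), the large loader subunit, was at 18.2 and 17.8 FPKM in Control, 17.3 and 17.6 in Esrrb, 17.0 and 18.5 in Hh-CM and 20.7 and 20.2 in Esrrb+Hh-CM libraries. Pcna and Rfc5 formed 3 levels, with Control and Esrrb overlapping, Hh-CM above them and Esrrb+Hh-CM highest, while the 6 other libraries of Rfc1 lay within 17.0 to 18.5 FPKM below an Esrrb+Hh-CM pair at 20.2 and 20.7 FPKM. The changes from Control to Esrrb+Hh-CM were 1.27 ± 0.14 (SE, adjusted p = 0.00125) for Rfc5, 0.72 ± 0.06 (SE, adjusted p = 0.000519) for Pcna and 0.18 ± 0.05 (SE, adjusted p = 0.0399) for Rfc1. The call for Rfc1 was lost after rescaling (0.10, adjusted p = 0.164) and with any library of Control, Esrrb or Esrrb+Hh-CM left out (adjusted p 0.0648 to 0.150). Rfc2 (0.51) and Rfc3 (0.72) were in between. Rfc4 was listed at 0 in all 8 libraries on a locus (chr16:23114021-23127803, mm9) that matches the gene. An exact 0 in such a table can be a failed estimate and is not read here as absent expression.

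Of the polymerase, primase and single-strand binding genes, 8 of the 10 tested rose. Pole (chr5:110715325-110766493), the catalytic subunit of the leading strand polymerase, was at 1.04 and 1.11 FPKM in Control, 1.68 and 1.56 in Esrrb, 2.26 and 2.39 in Hh-CM and 4.17 and 4.72 in Esrrb+Hh-CM libraries. Prim1 (chr10:127452228-127467093), the primase subunit that makes the RNA primer, was at 8.45 and 9.52 FPKM in Control, 9.32 and 9.95 in Esrrb, 15.0 and 14.5 in Hh-CM and 23.3 and 20.6 in Esrrb+Hh-CM libraries. Pole stepped up from Control to Esrrb, to Hh-CM and to Esrrb+Hh-CM with no overlap, and so did Prim1 except that its Control and Esrrb libraries overlapped. The log2 fold changes were 1.95 ± 0.12 (SE, adjusted p = 0.000156) and 1.28 ± 0.09 (SE, adjusted p = 0.000236). Rpa3 (chr6:8205936-8209173), the smallest subunit of the single-strand binding complex RPA, stood at 51.0 and 48.8 FPKM in Control, 43.8 and 44.4 in Esrrb, 50.2 and 50.5 in Hh-CM and 55.5 and 49.8 in Esrrb+Hh-CM libraries. Its Control, Hh-CM and Esrrb+Hh-CM libraries overlapped and only the Esrrb pair lay apart, below them, and the change from Control to Esrrb+Hh-CM was 0.07 ± 0.06 (SE, adjusted p = 0.368). The other subunits of RPA differed from it, with Rpa2 at 1.01 ± 0.12 (SE, adjusted p = 0.00173) and Rpa1 at 0.44 ± 0.05 (SE, adjusted p = 0.00115). Pold1 (1.09), Pola1 (1.07), Prim2 (1.00) and Pole2 (0.90) rose. Pola2 was not called (0.96 ± 0.80, adjusted p = 0.397). Its row in Esrrb replicate 1 covered a longer locus, from 5917556 in place of 5940543 to 5964206 on chromosome 19, and read 73.3 FPKM, where the other 7 libraries gave 9.15 to 20.3 FPKM. Pold2 was listed at 0 in all 8 libraries on its own locus (chr11:5772183-5778259), which likewise may be a failed estimate.

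Lig1 and Fen1, which join and trim the fragments of the lagging strand, both passed both thresholds. Fen1 (chr19:10273622-10278659) was at 7.05 and 6.90 FPKM in Control, 9.08 and 7.95 in Esrrb, 10.0 and 9.28 in Hh-CM and 18.3 and 15.2 in Esrrb+Hh-CM libraries. Lig1 (chr7:13862632-13896782) was at 9.56 and 9.89 FPKM in Control, 10.9 and 9.12 in Esrrb, 13.7 and 16.5 in Hh-CM and 22.7 and 21.9 in Esrrb+Hh-CM libraries. Esrrb+Hh-CM libraries were above all others in both genes, and Hh-CM libraries above the vehicle libraries, while Lig1 overlapped between Control and Esrrb. Fen1 rose by 1.25 ± 0.11 (SE, adjusted p = 0.000600) and Lig1 by 1.19 ± 0.12 (SE, adjusted p = 0.000995).

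The 4 genes of nucleotide supply all passed both thresholds, Rrm1 only just (1.002). Tk1 (chr11:117676840-117687406), the thymidine kinase of S phase, was at 8.86 and 10.2 FPKM in Control, 13.1 and 12.6 in Esrrb, 18.1 and 21.4 in Hh-CM and 49.6 and 32.8 in Esrrb+Hh-CM libraries. Rrm2 (chr12:25393106-25399011), the regulated subunit of ribonucleotide reductase, was at 10.6 and 11.4 FPKM in Control, 13.3 and 14.2 in Esrrb, 19.3 and 19.8 in Hh-CM and 35.2 and 29.6 in Esrrb+Hh-CM libraries. Rrm1 (chr7:109590209-109618285), its large subunit, was at 17.7 and 18.0 FPKM in Control, 20.6 and 19.9 in Esrrb, 23.5 and 24.6 in Hh-CM and 37.3 and 34.5 in Esrrb+Hh-CM libraries. The order Control, Esrrb, Hh-CM, Esrrb+Hh-CM held in these genes library by library with no overlap, and the Esrrb+Hh-CM pair of Tk1 was 0.60 apart on the log2 scale, more than the pair of any other tested gene of the 44 in this condition. The log2 fold changes were 2.07 ± 0.20 (SE, adjusted p = 0.000878), 1.54 ± 0.09 (SE, adjusted p = 0.000149) and 1.00 ± 0.05 (SE, adjusted p = 0.000110). Tyms, which makes thymidylate, rose by 1.15 ± 0.07 (SE, adjusted p = 0.000191).

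**Figure D3:**
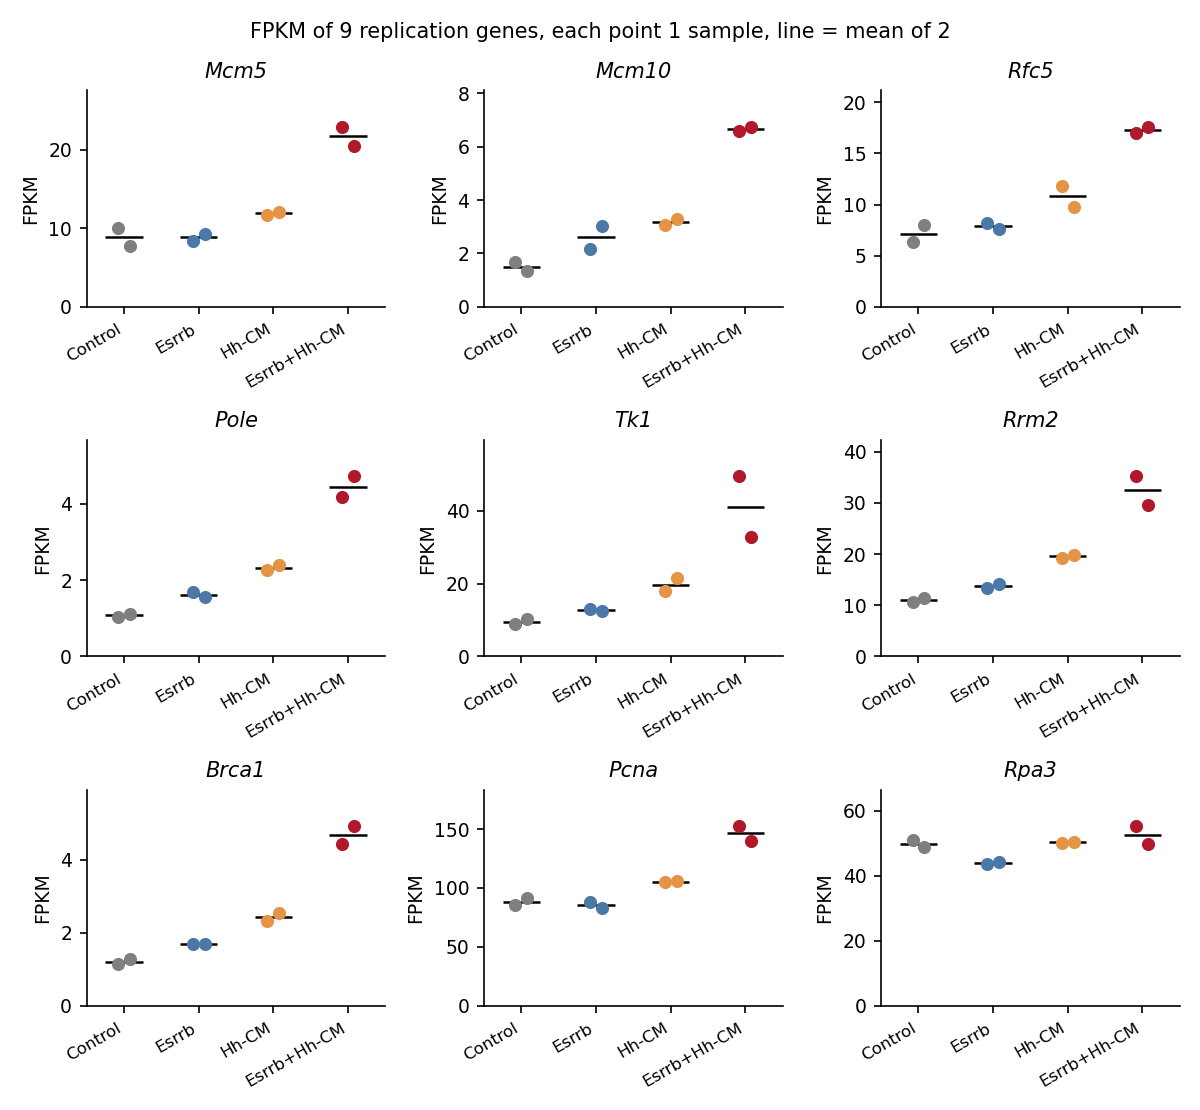
FPKM of 9 replication genes in the 8 libraries, each point 1 library and each line the mean of 2, on axes that start at 0. Mcm5, Mcm10, Rfc5, Pole, Tk1, Rrm2, Brca1 and Pcna are highest in the 2 Esrrb+Hh-CM libraries, and Rpa3 stays within 43.8 to 55.5 FPKM.

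Genes that copy chromatin and its marks rose with the fork genes, apart from Dnmt1. Chaf1a (chr17:56179827-56206973), the large subunit of the histone chaperone CAF-1, was at 5.43 and 5.79 FPKM in Control, 6.26 and 6.92 in Esrrb, 8.49 and 9.32 in Hh-CM and 13.7 and 14.1 in Esrrb+Hh-CM libraries. Uhrf1 (chr17:56442744-56462909), which brings the maintenance methyltransferase to new DNA, was at 13.3 and 17.8 FPKM in Control, 14.2 and 13.3 in Esrrb, 19.5 and 21.7 in Hh-CM and 34.1 and 34.0 in Esrrb+Hh-CM libraries. Chaf1a stepped up through the 4 conditions with no overlap, while Uhrf1 overlapped between Control and Esrrb. Their changes were 1.29 ± 0.08 (SE, adjusted p = 0.000166) and 1.14 ± 0.14 (SE, adjusted p = 0.00195), that of Chaf1b was 1.14 ± 0.11 (SE, adjusted p = 0.000835), and that of Slbp, which binds the stem-loop of histone mRNA, was 0.58 ± 0.06, also called by the adjusted p. Dnmt1 (chr9:20711650-20757317), the maintenance methyltransferase, was at 10.6 and 37.2 FPKM in Control, 13.2 and 12.7 in Esrrb, 12.7 and 12.7 in Hh-CM and 19.0 and 20.3 in Esrrb+Hh-CM libraries. The first Control library was the lowest of the 8 and the second the highest, and the change was -0.02 ± 0.53 (SE, adjusted p = 0.981), the only one below 0 of the 44. The row of Control replicate 2 covered a longer locus, to 20781237 where the other libraries ended at 20764332 on chromosome 9. Without that library the change was 0.88 (adjusted p = 0.00191), and without Control replicate 1 it was -0.92 (adjusted p = 0.00171). With Dnmt1 and Pola2 removed by a stricter overlap of 0.8 between locus and gene, 40 of 42 genes rose. At that overlap 3539 of all 9724 genes tested were called by the adjusted p, 65.9% of them as higher.

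The 5 repair genes, which act on broken or stalled forks, were low in Control cells and all passed both thresholds. Brca1 (chr11:101350078-101413269), which promotes repair by homologous recombination, was at 1.13 and 1.28 FPKM in Control, 1.71 and 1.68 in Esrrb, 2.31 and 2.54 in Hh-CM and 4.43 and 4.93 in Esrrb+Hh-CM libraries. Fancd2 (chr6:113481676-113547011), the central protein of the Fanconi pathway, was at 0.955 and 0.942 FPKM in Control, 1.46 and 0.856 in Esrrb, 1.78 and 1.91 in Hh-CM and 3.01 and 3.09 in Esrrb+Hh-CM libraries. Brca2 (chr5:151325205-151372321), which acts in homologous recombination, was at 0.762 and 0.792 FPKM in Control, 0.962 and 0.840 in Esrrb, 1.30 and 1.41 in Hh-CM and 1.67 and 1.68 in Esrrb+Hh-CM libraries. All of them were at or below 1.28 FPKM in Control and highest in Esrrb+Hh-CM libraries, and Fancd2 overlapped between Control and Esrrb. The log2 fold changes were 1.87 ± 0.12 (SE, adjusted p = 0.000188), 1.58 ± 0.24 (SE, adjusted p = 0.00444) and 1.02 ± 0.15 (SE, adjusted p = 0.00459), and Fancb (1.52) and the nuclease gene Exo1 (1.47) rose as well. Brca2, Fancd2, Fancb and Cdc6 were under 1 FPKM in some libraries, and Brca2 and Fancd2 would not have passed the FPKM limit without the libraries that received Hh-CM. Of the 40 genes with at least 1 FPKM in all 8 libraries, 37 rose from Control to Esrrb+Hh-CM by the adjusted p, 26 of them by both thresholds, and none fell. Under this limit 3438 of all 9470 genes tested were called by the adjusted p, 65.8% of them as higher. By both thresholds 453 were called, in either direction.

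Hh-CM alone was compared with vehicle in cells without the Esrrb vector. In Control against Hh-CM libraries, 27 of the 44 genes rose and none fell by the adjusted p, beside 10.5% of all genes higher and 7.53% lower. Only Mcm10 (1.04 ± 0.18, adjusted p = 0.0149), Pole (1.04 ± 0.12, adjusted p = 0.00315) and Tk1 (1.04 ± 0.20, adjusted p = 0.0203) passed both thresholds, beside 1.96% of all genes higher and 0.797% lower. The median was 0.49 for the 44 and 0.04 for all genes. Libraries did not overlap in 38 of the 44, all with Hh-CM above Control (37.1% of all genes). Nucleotide supply moved together, since Tk1, Rrm2 (0.82), Tyms (0.62) and Rrm1 (0.43) all passed, as did 5 of 6 MCM subunits by 0.26 to 0.56. Mcm5 was the subunit that did not, at 0.43 ± 0.13 (SE, adjusted p = 0.0760). Genes closest to 0 were Cdt1 (0.00092 ± 0.11), Rpa3 (0.01 ± 0.06) and Rfc1 (-0.02 ± 0.05). The number of genes called depended on single libraries. Fewer were called when 1 library of these groups was left out, among the 44 as among all genes tested. With any 1 library left out, the median of the 44 ranged from 0.46 to 0.50. Without Control replicate 1, Dnmt1 was lower with Hh-CM (-1.54). Rescaling gave 26 higher and none lower here, while the share of rises among all genes called went from 58.3% to 48.3%.

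The Esrrb label alone went with a small change. Of the 44 genes, Mcm10 (0.74 ± 0.18, adjusted p = 0.0459), Pole (0.55 ± 0.12, adjusted p = 0.0317), Dtl (0.36 ± 0.08, adjusted p = 0.0307), Mcm4 and Mcm6 rose by the adjusted p in Esrrb against Control libraries and none fell, which is close to the 10.2% of all genes that rose and 6.16% that fell. None passed both thresholds, beside 0.836% of all genes higher and 0.632% lower. The median was 0.16 against 0.05 for all genes. Both Esrrb libraries were above both Control libraries in 22 genes and below them in 4, Cdt1, Rfc1, Rfc2 and Rpa3 (39.5% and 23.6% of all genes). The number of calls depended on single libraries here too. Fewer were called with any library of Control, Esrrb or Hh-CM left out, among the 44 as among all genes tested. With any 1 library left out, the median of the 44 ranged from 0.14 to 0.21. Without Control replicate 1, Dnmt1 was lower with the Esrrb label (-1.51). Without either Esrrb+Hh-CM library 5 rose and Rpa3 fell by 0.18 on the log2 scale. After rescaling, 4 genes rose and Rpa3 fell by 0.22 on the log2 scale (adjusted p = 0.0415), and the share of rises among all genes called went from 62.5% to 48.2%.

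Libraries with both the Esrrb label and Hh-CM stood above those with Hh-CM alone. From Hh-CM to Esrrb+Hh-CM libraries 36 of the 44 rose and none fell by the adjusted p, where 12.4% of all genes rose and 6.53% fell. Gins1 (1.21 ± 0.15, adjusted p = 0.00612), Mcm10 (1.04 ± 0.18, adjusted p = 0.0159) and Tk1 (1.03 ± 0.20, adjusted p = 0.0215) passed both thresholds, beside 1.11% of all genes higher and 0.866% lower. The whole MCM ring moved by 0.54 to 0.86, with Mcm5 at 0.86 ± 0.13 (SE, adjusted p = 0.0101). The median was 0.62 against 0.05, and in 43 genes both libraries of the combined condition were above both Hh-CM libraries (39.6% of all genes), Rpa3 being the exception. The genes not called were Cdc6, Cdt1, Rfc3, Pola2, Rpa3, Dnmt1, Brca2 and Fancd2. Fewer passed when 1 library of these groups was left out, among the 44 as among all genes tested. With any 1 library left out, the median of the 44 ranged from 0.58 to 0.62. Rescaling gave 32 higher and none lower, and the share of rises among all genes called went from 65.6% to 51.8%.

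In cells labelled Esrrb, nearly all of the genes were higher with Hh-CM than with vehicle. From Esrrb to Esrrb+Hh-CM libraries 41 of 44 rose and none fell by the adjusted p (13.9% of all genes higher, 9.51% lower), and 20 passed both thresholds (3.47% of all genes higher, 1.34% lower). Tk1 (1.64 ± 0.20, adjusted p = 0.00282), Brca1 (1.41 ± 0.12, adjusted p = 0.000680) and Pole (1.40 ± 0.12, adjusted p = 0.000675) changed most. Of the 20, Uhrf1 (1.30 ± 0.14, adjusted p = 0.00155), Mcm5 (1.28 ± 0.13, adjusted p = 0.00135), Gins1, Gins2, Fancd2 and Fancb had not passed with Hh-CM in empty-vector cells. For none of them did the responses with and without the vector differ by the adjusted p in limma (0.0918 for Uhrf1 and 0.0910 for Mcm5). Rpa3 passed here (0.25 ± 0.06, adjusted p = 0.0273), but not when either Esrrb library, either Hh-CM library or Esrrb+Hh-CM replicate 1 was left out, without the FPKM limit, or with only the compared groups in the fit (adjusted p 0.0539 to 0.111). Cdc6, Pola2 and Dnmt1 did not pass. The median was 0.95 against 0.04 for all genes. Rescaling left 41 higher and none lower, while the share of rises among all genes called went from 59.4% to 50.1%.

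Whether the response to Hh-CM differed between cells with and without the Esrrb vector was tested by the interaction, the change from Esrrb to Esrrb+Hh-CM minus the change from Control to Hh-CM. The response was larger with the vector in 43 of the 44 genes, all but Pola2, by a median of 0.46 on the log2 scale, where 50.1% of all genes had a positive difference and the median was near 0. No single gene passed the adjusted p in limma, beside 0.759% of all genes called with a larger and 0.593% with a smaller response. At an unadjusted p below 0.05 there were 31 of the 44, all positive, and 18% of all genes. The values nearest to the threshold were those of Rfc2 (0.48 ± 0.08, adjusted p = 0.0543), Pcna (0.52 ± 0.09, adjusted p = 0.0573), Mcm3 (0.65 ± 0.11, adjusted p = 0.0573) and Mcm7 (0.54 ± 0.09, adjusted p = 0.0608), and these 4 passed after rescaling, with adjusted p from 0.0445 to 0.0455. With rescaling the calls among all 10283 genes also went up, from 139 to 215. Uhrf1 (0.89 ± 0.19), Mcm5 (0.85 ± 0.18) and Gins1 (0.83 ± 0.22) had larger differences with larger errors. Of the genes past both thresholds with Hh-CM alone, Mcm10 (0.30 ± 0.26) and Pole (0.36 ± 0.17) were below the median of 0.46 and Tk1 (0.60 ± 0.29) above it.

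**Figure D4:**
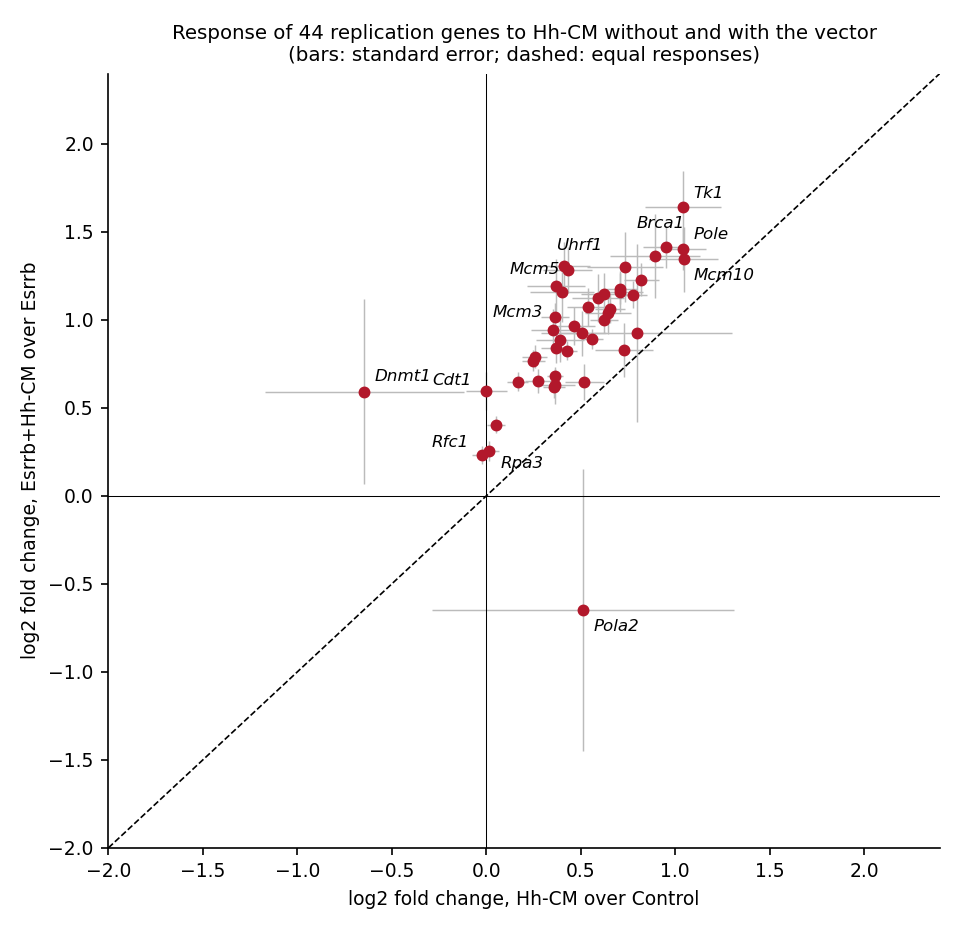
Each point is 1 of the 44 replication genes, with the log2 fold change by Hh-CM in empty-vector cells on the x axis, that in Esrrb-vector cells on the y axis, and standard errors as bars. All points but Pola2 lie above the dashed line of equal responses.

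The means over the 2 libraries followed the order Control, Esrrb, Hh-CM, Esrrb+Hh-CM in 31 of the 44 genes. How many of all genes tested follow this order was not counted. In 9 genes (Mcm5, Cdt1, Gins2, Pcna, Rfc2, Rfc3, Rpa3, Uhrf1 and Slbp) Esrrb was below Control, and Gins1, Pola2, Rfc1 and Dnmt1 each had an order of its own. In 33 of the 44 (75%) the libraries themselves formed 3 levels with no overlap, Esrrb+Hh-CM above Hh-CM above all vehicle libraries, as in 6.54% of all genes. Control and Esrrb libraries overlapped in 18 of the 44, a share near that of all genes tested (3788 of 10283). Hh-CM and Esrrb+Hh-CM libraries overlapped in 1 of the 44, beside 3783 of 10283. Libraries of a condition were close, with a median difference between the 2 of 0.09 to 0.10 on the log2 scale in each condition, and gaps over 0.5 were seen for Dnmt1 and Cdc6 in Control, Cdc6 in Hh-CM, Pola2 and Fancd2 in Esrrb and Tk1 in Esrrb+Hh-CM.

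Other cell cycle genes were read in the same fit. From Control to Esrrb+Hh-CM 23% of all genes rose and 12% fell by the adjusted p, and 4.6% and 1.61% did so by both thresholds. Of 50 tested other replication and S-phase genes, 37 rose and none fell in this comparison, 21 by both thresholds, with a median of 0.94. The largest changes in size were those of Rnaseh2a (3.44 ± 1.94, adjusted p = 0.224), which did not pass, the cohesin acetyltransferase gene Esco2 (2.08 ± 0.25, adjusted p = 0.00203) and Fanca (2.03 ± 0.19, adjusted p = 0.000835). Rnaseh2a was listed at exactly 0 in Control replicate 2 and at 8.43 to 11.1 FPKM in the 7 other libraries, so that its value rests on that library and the pseudocount. All 29 tested mitosis genes rose, 28 by both thresholds, with a median of 1.88, led by the topoisomerase gene Top2a (2.75 ± 0.04), Mki67 (2.46 ± 0.14) and Cenpf (2.31 ± 0.11). Mitosis genes also had the larger median with Hh-CM alone (0.98, 28 of 29 higher against 27 of 44 and 10.5% of all genes). The same held in the interaction (0.61, 5 of 29 past the adjusted p against 0 of 44, and 0.759% of all genes with a larger response). The difference between these lists was not tested. Upstream of the fork, 17 of 25 tested G1/S regulators rose and 3 fell (median 0.49), and the falls are no more frequent than the 12% of all genes. Those that fell were Ccnd1, Ccnd2 and Myc, named after their values were seen. E2f7 (2.10 ± 0.15) and E2f8 (1.95 ± 0.20), which encode repressor E2Fs, and Ccna2 (1.94 ± 0.05), the cyclin of S phase, changed most. Gli1 (8.11) and Ptch1 (4.03) had far larger log2 fold changes than any replication gene.

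**Figure D5:**
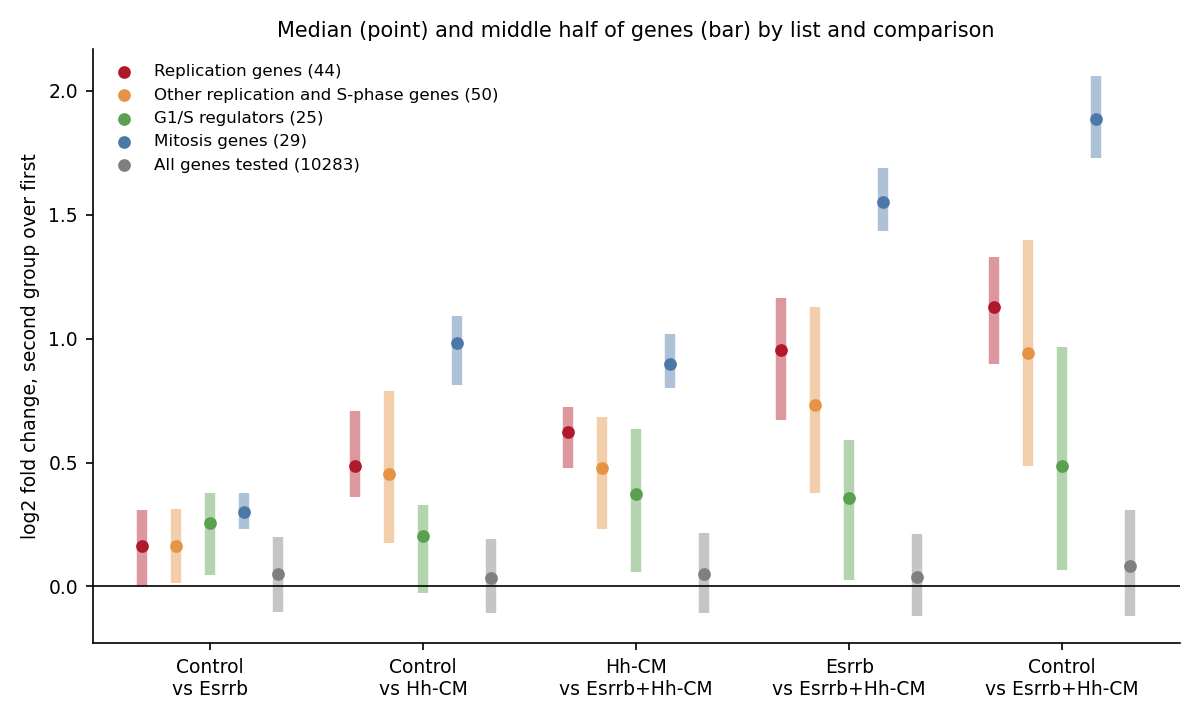
Points give the median and bars the quartiles of the log2 fold changes of replication genes (44), other replication and S-phase genes (50), G1/S regulators (25), mitosis genes (29) and all genes tested (10283) in 5 comparisons, second group over first. Replication genes have medians of 0.16, 0.49, 0.62, 0.95 and 1.13 from left to right, and the medians of mitosis genes lie above them in each.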

How the data were processed

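Labels gave 4 conditions of 2 libraries each. The authors made stranded mRNA libraries, trimmed reads with FASTX-Toolkit, aligned to mm9 using Bowtie2 and TopHat2, then assembled each sample with Cufflinks guided by the annotation. The deposited unit is FPKM (called RPKM in the methods), and read counts were not used here. Loci, not identifiers, were matched to GENCODE genes of the same build, with pseudogenes and small RNAs left out and the best row kept (overlap of at least 0.5 of the joint length). Genes with at least 1 FPKM in 2 libraries or more were fitted with limma 3.58.1 (R 4.3.3) on log2(FPKM + 0.1), 4 group means, a variance trend and p-values adjusted per comparison (Benjamini-Hochberg). A fold change is on that scale and understates changes of low genes. Calls needed an adjusted p below 0.05 alone, or with a change of 1 or more on the log2 scale. Cuffdiff, the study's test, needs aligned reads. The fit was tested on simulated data. Python 3.11.15 with pandas 2.3.3 handled tables. Genes, lists and motifs were chosen with earlier results of these data known. In each role, values are given for the 2 largest and the smallest change between Control and Esrrb+Hh-CM libraries and for a sign against the rest. In other lists the 3 largest changes in size are named, except for a Hh target that is not reported here.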

Additional observations from a re-analysis of the deposited data

How the results depend on the processing

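Of 2515 values of 23 named replication genes under other settings, 164 lost and 41 gained a call and no called change reversed, while Dnmt1, uncalled from Control to Esrrb+Hh-CM (-0.02), was called lower without Control replicate 1 (-0.92) and higher without Control replicate 2 (0.88). A pseudocount of 1 gave 0 genes past both thresholds from Control to Hh-CM, 1 from Hh-CM to Esrrb+Hh-CM and 12 from Esrrb to Esrrb+Hh-CM, with medians of 0.41 (Control to Hh-CM), 1.01 (Control to Esrrb+Hh-CM), 0.56 and 0.86. Without an FPKM limit 20195 genes were tested. From Control to Hh-CM 1 gene then passed both thresholds and 12 the adjusted p (median 0.45), from Control to Esrrb 1, and from Hh-CM to Esrrb+Hh-CM 1 and 21. With FPKM of at least 1 in all libraries the median from Control to Hh-CM was 0.43. Rescaled FPKM gave medians of 0.45, 1.04 and 0.57 for Hh-CM and Esrrb+Hh-CM over Control and Esrrb+Hh-CM over Hh-CM, 1 gene past both thresholds in the last, and 4 in the interaction (215 of all 10283 genes). Only 27 of the genes had identical locus ends in every library, which alone allows fewer calls. Of these, 19 passed both thresholds and 26 the adjusted p from Control to Esrrb+Hh-CM, 13 and 27 from Esrrb to Esrrb+Hh-CM, 0 past both thresholds from Control to Hh-CM, 1 from Hh-CM to Esrrb+Hh-CM, 3 by the adjusted p from Control to Esrrb, and 3 in the interaction. With only the compared groups in the fit, 1 gene was called from Control to Esrrb. For changes of counts and medians other than those from fewer genes tested, the cause was not tested.

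Leaving out 1 library at a time gave, by the adjusted p and by both thresholds, 11 to 25 and 1 to 3 genes from Control to Hh-CM, 1 to 6 and 0 to 1 from Control to Esrrb, 38 to 40 and 26 to 29 from Control to Esrrb+Hh-CM, 17 to 33 and 1 to 3 from Hh-CM to Esrrb+Hh-CM, 38 to 41 and 18 to 22 from Esrrb to Esrrb+Hh-CM, and 0 to 2 in the interaction. Medians ranged from 0.46 to 0.50, 0.14 to 0.21, 1.07 to 1.15, 0.58 to 0.62 and 0.86 to 1.03 in the same order. By the adjusted p, calls over all genes tested also went down when a library of a compared group was left out, in every comparison other than the interaction. The counts of replication genes take both directions together. Dnmt1 is among them as lower (-1.51) from Control to Esrrb without Control replicate 1. Without Esrrb replicate 2, Pola2 is among them as lower from Esrrb to Esrrb+Hh-CM and in the interaction. Its Esrrb value is then only the 73.3 FPKM read on the longer locus in Esrrb replicate 1. A group left with 1 library is assumed to vary like the others.

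Replicate numbers did not pair the libraries. The deviations of same-numbered libraries from their group means had correlations of -0.06 to 0.06 in 6 pairs, and with a replicate block 2 genes in place of 5 were called from Control to Esrrb. With 2 libraries in each group no test for outliers was possible, depth is known only relative to 1 library, and the confidence limits that the deposited tables give for each row were not used here.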
